A study of Mus musculus with 3 samples.

Results

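The 7 genes described here, *Cdkn1a*, *Cdkn1b*, *Cdkn1c*, *Cdkn2a*, *Cdkn2b*, *Cdkn2c* and *Cdkn2d*, encode the inhibitors of cyclin-dependent kinases (CDKs) and were chosen by name. They are 7 of the 21755 protein-coding genes that GENCODE vM21 places on chromosomes 1 to 19 and X of mm10. The cells were long-term HSCs of 8-week-old female wild-type C57BL/6 mice (C57BL/6J in the study's methods), sorted as LSK CD48− CD150+ CD34− from bone marrow enriched for c-Kit, and how many mice were pooled is not known here. A single preparation was profiled by DOGMA-seq, a method that reads chromatin accessibility (ATAC), transcripts and surface antibody tags from the same cells, and it gave 1 library of each kind. Of 3757 called cells, the 3108 with more than 3000 fragments in peaks were kept, and their 37137164 ATAC fragments, with a median of 11442 a cell, were counted over each gene body plus 30 kb on either side. Gene-level RNA was not used, and the values below describe accessibility, not expression. With 1 library there is no replicate, and every interval is an exact 95% interval that covers counting error only.

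CDK inhibitors hold cells in G1 by blocking the kinases that phosphorylate the retinoblastoma protein, after which E2F factors would start S phase. The Cip/Kip proteins p21 (*Cdkn1a*), p27 (*Cdkn1b*) and p57 (*Cdkn1c*) bind several cyclin-CDK complexes, whereas the Ink4 proteins p16 (*Cdkn2a*), p15 (*Cdkn2b*), p18 (*Cdkn2c*) and p19Ink4d (*Cdkn2d*) bind CDK4 and CDK6. *Cdkn2a* also encodes p19Arf from a separate first exon, a protein that stabilizes p53. HSCs are mostly quiescent, p57 and p27 are known to help keep them so, and *Cdkn1c* is imprinted, being expressed from the maternal allele.

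The kept cells had the marker pattern of HSCs, with limits. A promoter was taken as the 1000 bp around the start of a gene and was called open at 5 times the genome mean or more, which came to 70.5 fragments against a mean of 14.1. By this rule 60.2% of all protein-coding promoters were open. Of 8 HSC markers 7 were open, and *Mecom*, the exception with 4 fragments at its gene-record start, was open at another annotated start with 770. None of the 12 markers of B cells, T cells, granulocytes and monocytes was open (highest, *Mpo* with 39 fragments), but all 3 megakaryocyte markers (*Itga2b* 1067, *Pf4* 846, *Gp9* 468), the erythroid marker *Epor* (113) and *Cxcl12*, 1 of 3 markers of stroma and endothelium (142), were. At its most open start another of these 3, *Col1a1*, was open too, with 396 fragments against 49 at its gene-record start. The part of such cells in the values below was not tested.

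The accessible promoters ranged widely among the 7 genes, from *Cdkn2d*, near the top of the genome, to *Cdkn1a*, whose first annotated start was closed. *Cdkn2d* (p19Ink4d, a CDK4/6 inhibitor) had 4169 fragments (interval 4043 to 4298) at its start at position 21291407 on the minus strand of chromosome 9. That is 296 times the genome mean and rank 219 of 21755 promoters, between *Nptn* with 4172 and *Mbd6* with 4166. *Cdkn1c* (p57) followed with 1359 fragments (1288 to 1433) at chromosome 7, 143461050, minus strand, and *Cdkn1b* (p27) with 1110 (1046 to 1177) at chromosome 6, 134920401, plus strand. They stood at the 83.6th and 79.2th percentiles of protein-coding promoters.

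*Cdkn2c* (p18) and *Cdkn2b* (p15) could not be ordered by these starts. They had 731 fragments (679 to 786; chromosome 4, 109667189, minus strand) and 728 (676 to 783; chromosome 4, 89311039, minus strand), and their ratio of 1.00 had an interval from 0.905 to 1.11. Within 250 bp of the start, however, *Cdkn2b* stood above *Cdkn2c*, with an interval from the 68.6th to the 71.6th percentile of protein-coding promoters against the 60.8th to the 64.1th. The order turned again at the RefSeq start 109666756 of *Cdkn2c*, nearer to its highest bin, with 874 fragments (817 to 934). The RefSeq start of *Cdkn2b* had 730 (678 to 785). At its other RefSeq start, 109665372, *Cdkn2c* had 167 (143 to 194), below *Cdkn2b*. The order of these genes thus rests on the start and width taken. *Cdkn2a*, at the start that encodes p19Arf (chromosome 4, 89294653, minus strand), had 276 fragments (244 to 311), near the middle of the genome at the 54.1th percentile. All other neighbors in this order differed beyond their counting error, the closest of them being *Cdkn1c* over *Cdkn1b* at 1.22 times (1.13 to 1.33). By the gene-record start 6 of the 7 promoters were open, beside the 60.2% of all promoters.

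**Figure D1:**
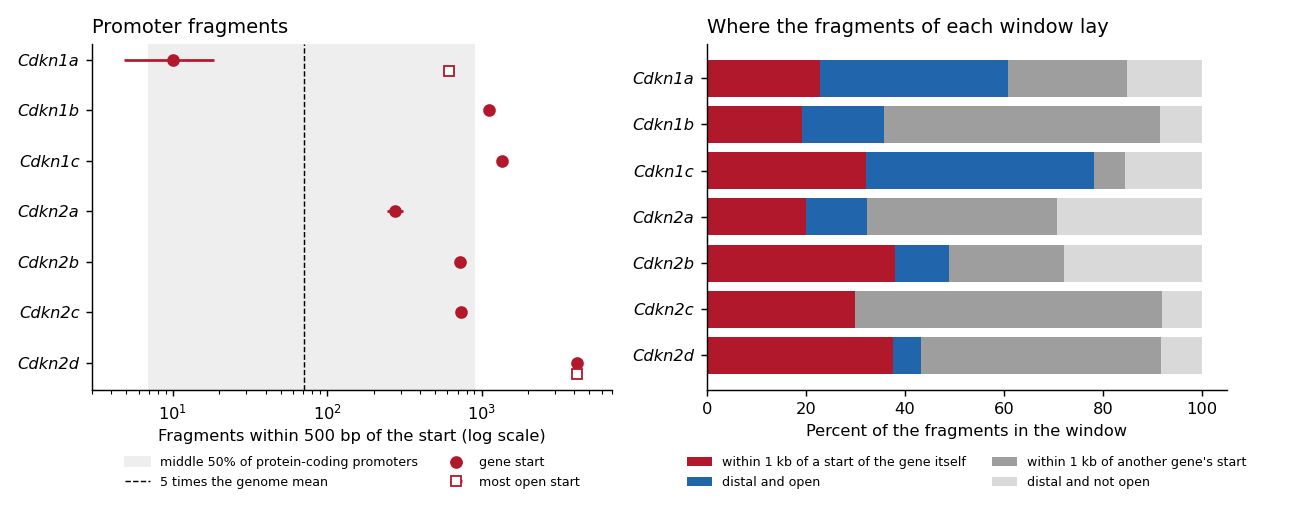
Left, fragments within 500 bp of the gene start (circles, log axis) and of the most open annotated start where that is another one (squares), with exact 95% Poisson intervals; the grey band holds the middle 50% of protein-coding promoters and the dashed line is 5 times the genome mean. Right, the share of each window's fragments near a start of the gene itself, near a start of another gene, in open distal bins and in the remaining bins; *Cdkn2d* stands far right among promoters, and *Cdkn1c* and *Cdkn1a* hold the largest shares in open distal bins (45.9% and 37.9%).

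Several of these genes have more than 1 start, and the starts of a gene were not alike. *Cdkn1a* (p21, a main target of p53) begins in the annotation at chromosome 17, 29090976, plus strand, where 10 fragments (4.80 to 18.4) lay, fewer than the genome mean. At the start of transcript Cdkn1a-205, 2805 bp farther into the gene, there were 616 fragments (568 to 667), 43.7 times the mean. A fragment fell there in 16.3% of cells (15.1 to 17.7) and at the first start in 0.322% (0.154 to 0.591). Of the annotated starts of *Cdkn1a* this inner one was the most accessible, and with the most open start of each gene all 7 members were open, as were 65.2% of all protein-coding genes at theirs.

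The RefSeq promoter sequence at the closed start, shown to set it beside the open ones, holds few CpGs. Its 300 bases have 2 CpG dinucleotides, a ratio of observed to expected CpG of 0.0893, and none of the 12 motifs searched, whereas the 300 bases at the inner start have 23 CpGs, a ratio of 0.786 and 2 GC boxes. The motifs were searched on both strands. Common promoter elements were the GC box, spelled GGGCGG, the CCAAT box, spelled as its name says, the TATA box, with the letters TATAAA, and the E box, written CACGTG. For factors of blood and stem cells the strings were TGTGGT for the RUNX family, which definitive hematopoiesis needs, then AGATAA for the GATA family of erythroid and stem cell factors, CCGGAA for the ETS family to which PU.1 belongs, and TGTTTAC for the forkhead factors, among them the FoxO proteins that act on Cip/Kip genes. Signal-driven and cell-cycle factors were covered by TTCNNNGAA for STAT proteins, TTTCCCGC for E2F and GTCTAGAC for SMAD. The string AGGGGGCGC, the core of the CTCF motif, was chosen after the sequences had been seen. Among 32619 RefSeq promoter sequences of the same length 35.9% hold a GC box, 37.6% a CCAAT box, 1.08% the E2F string and 13.7% the TATA box. The lines below give the bases upstream of each start that lie outside annotated exons, 5′ to 3′ on the strand of the gene (RefSeq, GRCm38.p6), and capitals mark matches to these motifs. The fragments given are those within 500 bp of the RefSeq start, which for *Cdkn1a*, *Cdkn2d* and p19Arf lies apart from the gene-record start.
*Cdkn1a*, first start, chr17:29090729-29090975, 10 fragments: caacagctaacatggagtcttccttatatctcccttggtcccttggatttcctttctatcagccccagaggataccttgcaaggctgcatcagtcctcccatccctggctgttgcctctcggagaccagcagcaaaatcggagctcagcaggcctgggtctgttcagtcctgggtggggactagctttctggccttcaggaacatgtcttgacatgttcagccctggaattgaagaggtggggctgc
*Cdkn1b*, chr6:134920151-134920400, 1110 fragments: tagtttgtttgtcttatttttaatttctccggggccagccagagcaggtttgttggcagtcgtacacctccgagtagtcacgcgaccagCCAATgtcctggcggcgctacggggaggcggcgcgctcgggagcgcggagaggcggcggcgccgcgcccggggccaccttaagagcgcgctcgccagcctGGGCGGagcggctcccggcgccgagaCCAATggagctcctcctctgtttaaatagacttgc
*Cdkn2d*, chr9:21291408-21291459, 4136 fragments: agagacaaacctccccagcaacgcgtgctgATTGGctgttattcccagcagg
*Cdkn2a*, p19Arf start, chr4:89294654-89294869, 274 fragments: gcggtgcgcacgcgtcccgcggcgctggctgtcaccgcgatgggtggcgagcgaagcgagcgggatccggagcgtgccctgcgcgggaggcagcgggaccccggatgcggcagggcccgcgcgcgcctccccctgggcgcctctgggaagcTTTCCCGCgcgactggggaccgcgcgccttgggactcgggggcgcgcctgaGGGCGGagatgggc
*Cdkn2a*, p16Ink4a start, chr4:89282193-89282442, 90 fragments: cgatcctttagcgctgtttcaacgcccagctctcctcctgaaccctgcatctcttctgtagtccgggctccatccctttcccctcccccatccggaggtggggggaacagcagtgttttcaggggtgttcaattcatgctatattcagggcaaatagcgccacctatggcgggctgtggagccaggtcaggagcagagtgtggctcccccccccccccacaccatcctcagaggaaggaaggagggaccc
The *Cdkn1b* stretch carries a GC box and 2 CCAAT boxes, *Cdkn2d* a CCAAT box in inverted orientation, and p19Arf a GC box and the E2F string. No TATA box was found in any of the 9 entries for the 6 members that have one; *Cdkn1c* has none. Matches are strings of letters and show no binding.

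Over the whole 300 bases the number of GC boxes followed accessibility only in part, by the fragments at each RefSeq start. *Cdkn2d* (4136 fragments) had 5 and the *Cdkn2c* entry with its start at 109666756 (874) had 4. The inner *Cdkn1a* start (612) had 2 and the p16Ink4a start (90) had 1. The *Cdkn2c* entry with its start at 109665372 (167) and the first *Cdkn1a* start (10) had 0. Out of this order, p19Arf (274) had 3, and *Cdkn1b* (1110) and *Cdkn2b* (730) had 1 each. The p19Arf sequence was the richest in G and C at 77.0%, above 97.6% of RefSeq promoters, although its promoter was the least accessible of the 6 open by gene-record start. *Cdkn1b*, with 62.0% G and C, had a CpG ratio of 1.04, close to the 1.04 of p19Arf (96.0th and 95.9th percentiles), but had 1110 fragments against 276.

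The p16Ink4a start of *Cdkn2a*, 12461 bp downstream of the p19Arf start, was the least accessible of the starts called open among those shown. It had 90 fragments (72.4 to 111), 6.38 times the genome mean, against 276 at p19Arf, so that p19Arf was 3.07 times higher (2.41 to 3.94). A fragment was seen there in 2.64% of cells (2.10 to 3.26) and at p19Arf in 7.82% (6.90 to 8.82). Of the fragments, 21.1% at p16Ink4a and 31.5% at p19Arf were shorter than the DNA wrapped on a nucleosome, beside 45.6% over all fragments. The inner *Cdkn2c* start, 1817 bp into the gene, was likewise weaker than the first, with 167 fragments (143 to 194) against 731.

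Short fragments come from DNA free of nucleosomes, and their share rose from the weakest to the strongest promoters only in part. It was highest at *Cdkn2d* (75.8%) and *Cdkn1c* (68.4%), 58.3% at *Cdkn2c*, 50.8% at *Cdkn2b*, 49.9% at *Cdkn1b* and 48.7% at the inner *Cdkn1a* start. *Cdkn1b* had more fragments than *Cdkn2c* and a lower share of short ones. *Cdkn2a* was the only member below the share over all fragments at its most open start.

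**Figure D2:**
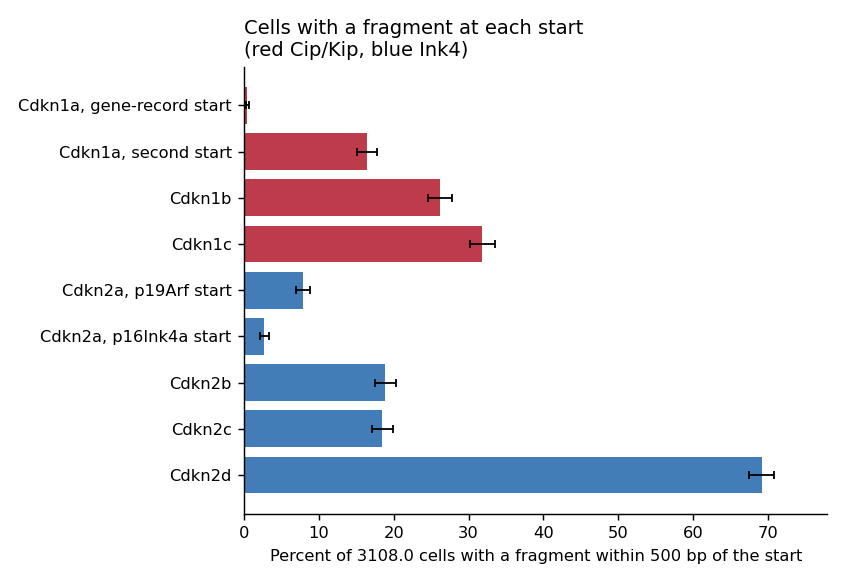
Percent of the 3108 cells with at least 1 fragment within 500 bp of a start (bars), for chosen starts, with exact 95% binomial intervals; Cip/Kip starts are red and Ink4 starts blue. *Cdkn2d* reached 69.2% of cells, and of the starts drawn the first *Cdkn1a* start (0.322%) and the p16Ink4a start (2.64%) were the lowest.

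In single cells, a fragment at the promoter of *Cdkn2d* was seen in 69.2% of cells (67.6 to 70.8), of *Cdkn1c* in 31.9% (30.2 to 33.5) and of *Cdkn1b* in 26.2% (24.6 to 27.7). With each cell thinned to 3000 fragments these shares were 28.9%, 10.7% and 8.33%, taken for *Cdkn2d* at its most open start (69.4% before thinning). *Cdkn2b* reached 18.8% (17.5 to 20.2) and *Cdkn2c* 18.5% (17.1 to 19.9), or 5.12% and 4.99% after thinning. Where *Cdkn2d* was seen at all, 54.9% of the cells held 2 fragments or more, against 28.6% for *Cdkn1c* and 11.9% for *Cdkn2a*. A cell without a fragment is not a cell with a closed promoter, since each cell gave few fragments.

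Taking the most open start of each gene, 89.9% of cells (88.8 to 91.0) had a fragment at 1 or more of the 7 promoters. Any Ink4 promoter was seen in 79.9% and any Cip/Kip promoter in 57.4%, but without *Cdkn2d* the Ink4 share was 38.1%. These shares moved with depth. Cells with none of the 7 had a median of 9177 fragments and cells with 4 had 14025, and with each cell thinned to 3000 fragments the share with any of the 7 was 50.3%.

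The comparison of the families turned on *Cdkn2d*. Per gene, the Cip/Kip promoters had 826 fragments (10 to 1359 among 3 genes) and the Ink4 promoters 1476 (276 to 4169 among 4), a ratio of 0.560 (0.534 to 0.587). Without *Cdkn2d* the ratio was 1.43 (1.34 to 1.52), and leaving out any other member kept it between 0.379 and 0.836. With the most open start of each gene it was 0.696 (0.666 to 0.727) with *Cdkn2d* and 1.78 (1.68 to 1.89) without it. Members are not replicates of a family, so these ratios describe the 7 genes only.

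Distal bins were open more often around the Cip/Kip genes as a family, which rested on *Cdkn1c* and *Cdkn1b*. A bin of 500 bp was called open at 35.3 fragments, 5 times the genome mean of 7.05, which holds for 2.35% of bins, and distal if its center lay more than 1000 bp from any annotated transcript start, where 1.43% of bins were open. In the 7 windows 111 of 856 bins were open. An open distal bin can be continuous with the open bins of a start, as several here were. Of distal bins, 40 of 333 were open around the Cip/Kip genes (12.0%) and 13 of 384 around the Ink4 genes (3.39%). By gene the share was 16.5% for *Cdkn1c* and 12.6% for *Cdkn1b*, but 7.08% for *Cdkn1a* (8 of 113), near the 6.38% of *Cdkn2d* and the 4.86% of *Cdkn2a*. Open distal bins held 32.0% of all fragments in the Cip/Kip windows and 5.31% in the Ink4 windows, and the highest such bin had 1169 fragments against 227.

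**Figure D3:**
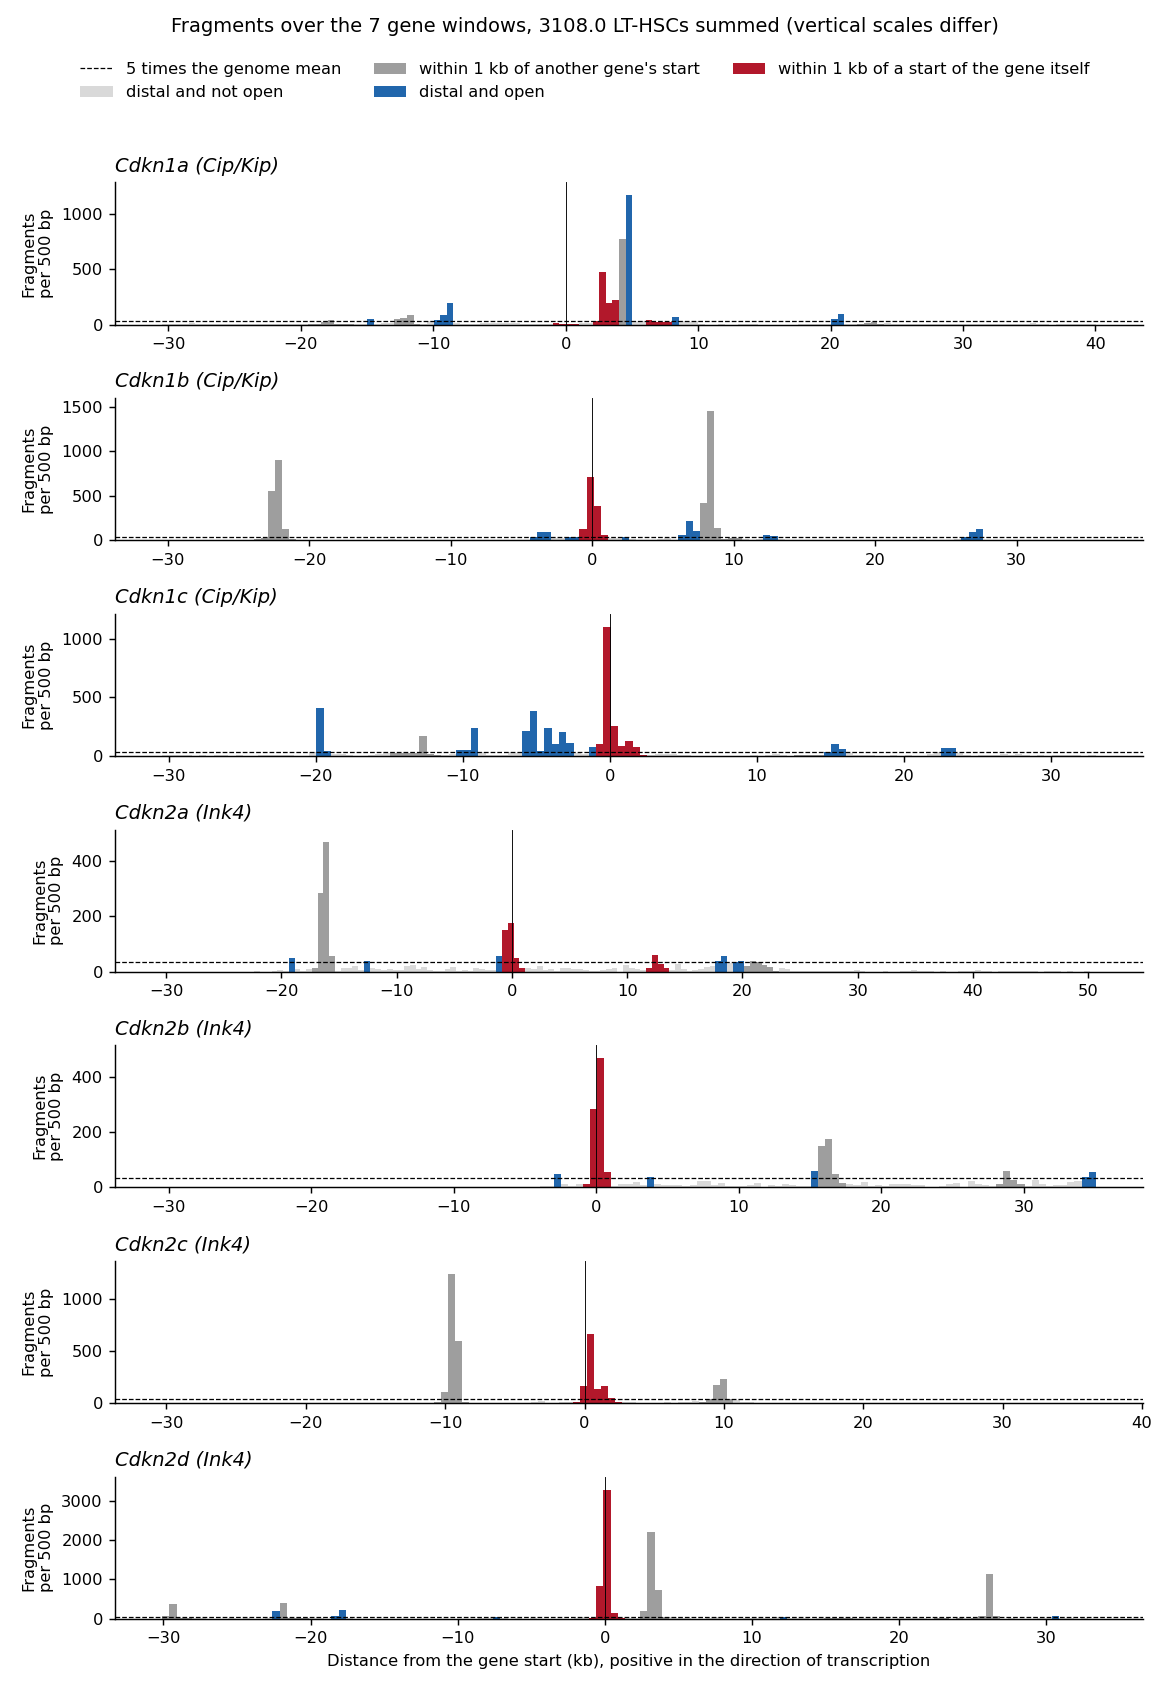
Fragments per 500-bp bin of the 3108 cells summed, against distance from the gene start in kb, with an own vertical scale for each gene; red bins lie within 1 kb of a start of the gene, dark grey bins within 1 kb of another gene's start, blue bins are distal and open, light grey bins distal and not open, and the dashed line is 5 times the genome mean. *Cdkn1a* peaks in its first intron at 4.775 kb, *Cdkn1c* has open bins from −1.2 to −19.7 kb, and *Cdkn2c* has no blue bin.

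Each Cip/Kip gene had a distal landscape of its own. In *Cdkn1a* the most accessible bin of the whole window was not at a start but in the intron, at 29095501 to 29096000, 4.775 kb from the first start and 1290 bp from the nearest annotated start (intron 1 of Cdkn1a-201). It had 1169 fragments (1103 to 1238), against 616 in the 1000 bp around the most open start of the gene, and more than 99.6% of all open distal bins of the genome. It was seen in 29.5% of cells (27.9 to 31.1), and 71.6% of its fragments were short. The bin next to it, with 772 fragments, is not distal, as it lies by the start of AC167363.2, listed in the annotation as TEC (a transcript still to be tested), and together with the promoter bins they form an open stretch of 2500 bp with 2840 fragments.

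*Cdkn1c* had the most open distal bins, 18 of 109, and they held more fragments (2507) than the bins around its own starts (1759). All but 5 lay upstream. The stretch from 143463501 to 143467000, 3500 bp long and between genes, had 1297 fragments (1227 to 1370), with its highest bin of 386 at −5.2 kb. Beyond it stood a bin of 242 fragments at −9.2 kb between genes, and one of 412 (373 to 454) at −19.7 kb in intron 5 of Slc22a18-201, a transcript of *Slc22a18*, itself an imprinted gene. That bin was seen in 11.3% of cells and lay above 96.3% of open distal bins. The promoter of *Slc22a18* was open too, with 207 fragments.

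The sequences of these distal sites are given because they hold much of the accessible DNA around *Cdkn1a* and *Cdkn1c*. Each line is the 200 bp of the bin with the most fragments, read from GRCm38 on the strand of the gene, with motif matches in capitals.
*Cdkn1a*, intron, chr17:29095502-29095701, 954 fragments: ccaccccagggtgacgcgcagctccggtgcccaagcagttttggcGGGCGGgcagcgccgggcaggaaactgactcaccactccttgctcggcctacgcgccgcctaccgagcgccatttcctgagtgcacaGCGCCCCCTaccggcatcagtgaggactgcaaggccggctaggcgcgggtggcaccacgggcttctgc
*Cdkn1c*, −5.2 kb, chr7:143466301-143466500, 304 fragments: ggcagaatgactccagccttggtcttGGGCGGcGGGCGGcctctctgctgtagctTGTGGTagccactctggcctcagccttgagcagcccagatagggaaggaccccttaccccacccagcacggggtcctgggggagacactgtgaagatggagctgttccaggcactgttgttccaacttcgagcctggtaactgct
*Cdkn1c*, −9.2 kb, chr7:143470010-143470209, 201 fragments: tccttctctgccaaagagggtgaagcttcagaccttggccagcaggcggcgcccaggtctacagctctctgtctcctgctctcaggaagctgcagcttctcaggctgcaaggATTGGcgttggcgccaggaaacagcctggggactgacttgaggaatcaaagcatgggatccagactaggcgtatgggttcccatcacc
*Cdkn1c*, −19.7 kb, chr7:143480692-143480891, 302 fragments: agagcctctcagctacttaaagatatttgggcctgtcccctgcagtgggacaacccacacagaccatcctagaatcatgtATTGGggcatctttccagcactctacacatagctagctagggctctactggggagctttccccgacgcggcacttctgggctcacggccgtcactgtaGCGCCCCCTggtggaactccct
The intron of *Cdkn1a* and the −19.7 kb site of *Cdkn1c* both hold the CTCF core string, in the inverted orientation. This string was chosen after the sequences had been seen, so finding it here was no test. It is found in 1.6% of the 70943 open distal bins of the genome, counted over the whole 500 bp of each. Bins alike in fragments or in G and C were not compared. CTCF is a zinc-finger protein that shapes chromatin loops and insulates imprinted domains. None of the other bins read for the 7 windows, the 3 with the most fragments of each where open, held it. The −5.2 kb site has 2 GC boxes and a RUNX string (16.2% and 38.1% of open distal bins have 1 or more). The −9.2 and −19.7 kb sites have an inverted CCAAT box each; 44.5% of open distal bins have one in either orientation. No match to GATA, ETS, forkhead, STAT or SMAD strings fell in these 4 stretches. The shares of open distal bins are counted over 500 bp, however. Over its whole 500 bp, the intron bin of *Cdkn1a* held 1 GATA string (22.2% of open distal bins hold 1 or more) and 2 CCAAT boxes. The −19.7 kb bin held 1 GC box and 2 CCAAT boxes, and the −9.2 kb bin 2 CCAAT boxes.

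Around *Cdkn1b* 14 of 111 distal bins were open. The highest had 215 fragments (187 to 246) at 6.85 kb, between genes, more than 88.4% of open distal bins, and the next 130 at 27.35 kb and 105 at 7.35 kb. More fragments in this window belonged to starts of other genes (55.8%) than to those of *Cdkn1b* itself (19.3%). The promoter of *Lockd*, a long noncoding RNA downstream of *Cdkn1b*, had 1331 fragments (1260 to 1404), above the 1110 of *Cdkn1b*. The distal bins at 6.85 and 7.35 kb lie in the same open stretch of 3000 bp as the *Lockd* start. Those at −1.65 and −1.15 kb lie in that of the *Cdkn1b* start. The paired starts of *2810454H06Rik* (1390) and *Gpr19* (913), which encodes an orphan receptor, lay at −22.4 and −21.8 kb.

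The Ink4 windows held fewer open distal bins. *Cdkn2c* had 0 open distal bins of 113, its highest distal bin reaching 26 fragments, while the start of *Faf1* at −9.4 kb had 1874. The windows of *Cdkn2a* and *Cdkn2b* overlap, and their highest distal bin had 58 fragments (44.0 to 75.0). *Cdkn2d* had 6 open distal bins, the highest with 227 fragments (198 to 259) at −17.8 kb in an intron of *Ap1m2*. Next to it the promoter of *Kri1*, 3.4 kb downstream, was also among the strong ones with 2897.

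Fragments were next compared between cells with much and with little RNA, since quiescent HSCs are known to be small and low in RNA, and since RNA content did not enter the choice of genes. The 1036 cells with the most RNA UMIs (median 5154) were set against the 1036 with the fewest (median 2889), over each gene body plus 2000 bp upstream and as a share of all fragments of the group. Of 13974 other genes with 300 fragments or more, 4.71% were past a log2 difference of 0.32 either way (the fold set for calls), 522 higher and 136 lower in RNA-rich cells. Of the 7 members 1 was past that fold, and 0 were when divided by promoter fragments, over 30 kb either side or with the cells split at the median. *Cdkn1c* had 674 fragments in RNA-rich and 646 in RNA-poor cells, which is 46.5 per 1000000 fragments against 58.3, a log2 difference of −0.33 (−0.48 to −0.17), at the 0.873th percentile of genes. The middle group of cells, with 46.7 per 1000000 (42.9 to 50.8), was at the level of the RNA-rich group.

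Within the *Cdkn1c* window, only the stretch around the start had an interval wholly below 0. In the open stretch around the start there were 57.1 fragments per 1000000 in RNA-poor and 45.7 in RNA-rich cells (log2 difference −0.32, −0.48 to −0.16). The upstream stretch at −5.2 kb differed by −0.19 (−0.38 to 0.0052), and the sites at −9.2 kb (−0.033, −0.41 to 0.35) and −19.7 kb (−0.058, −0.39 to 0.27) had intervals that include 0. Downstream, the site at 15.3 kb differed by 0.31 (−0.22 to 0.86) and the one at 23.3 kb by −0.59 (−1.19 to 0.0053), on 78 and 46 fragments in RNA-rich against 48 and 53 in RNA-poor cells. These sites were looked at after the value of the gene was seen. ATAC depth moved with the RNA groups, with a median of 12693 fragments a cell in RNA-rich and 10739 in RNA-poor cells. When RNA was ranked within 20 strata of ATAC depth, the difference was −0.16 (−0.32 to 0.0011) and no longer past the fold.

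None of the other 6 was called past the fold between RNA groups, and in the main comparison their intervals all include 0. *Cdkn1b* had a log2 difference of 0.13 (−0.055 to 0.31), *Cdkn2b* 0.19 (−0.037 to 0.42), *Cdkn2c* 0.083 (−0.12 to 0.28) and *Cdkn2d* 0.035 (−0.067 to 0.14). *Cdkn1a* was at −0.035 (−0.16 to 0.087) and *Cdkn2a* at −0.015 (−0.23 to 0.20). Some of these moved with the processing. Divided by promoter fragments, *Cdkn2b* (0.25, 0.021 to 0.48) and *Cdkn1b* (0.19, 0.0032 to 0.37) had intervals above 0, as had *Cdkn2b* with the cells split at the median (0.20, 0.010 to 0.39). *Cdkn1a* was at −0.39 (−3.29 to 2.51) within 500 bp of its first start, where there were too few fragments for a call. *Cdkn1b* turned to −0.063 (−0.21 to 0.085) with that split and to −0.061 (−0.24 to 0.12) within strata of ATAC depth.

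**Figure D4:**
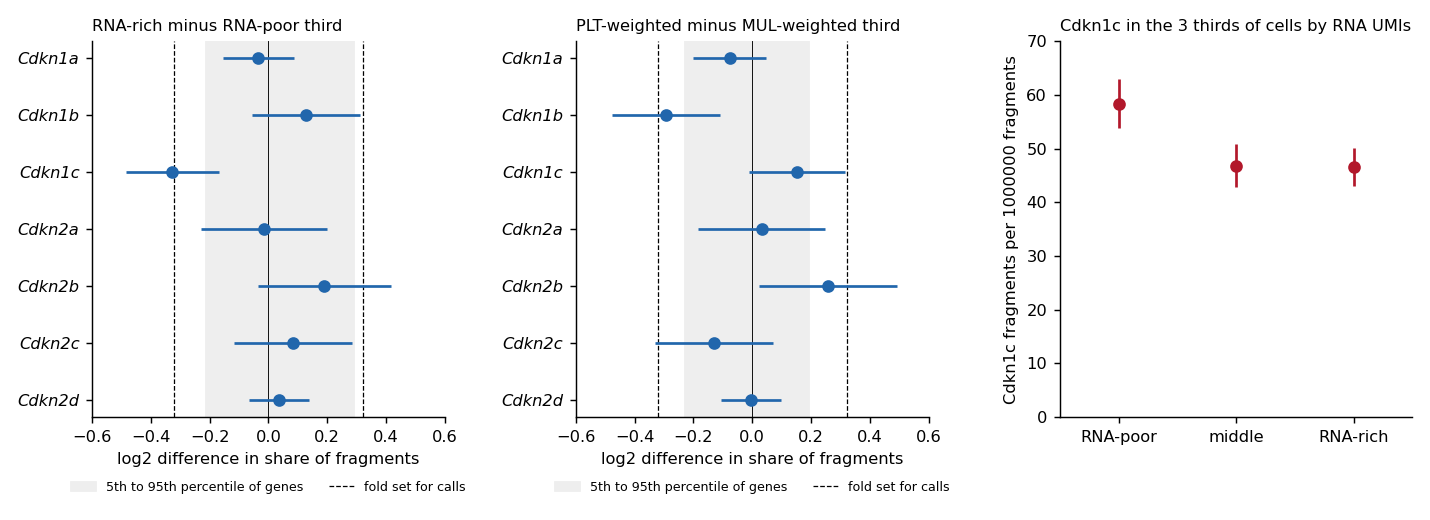
Left and center, log2 difference in the share of fragments over each gene between groups of 1036 cells with high and low RNA UMIs, and with high and low PLT share; points are the members with exact 95% intervals, the grey band the 5th to 95th percentile of other genes, and dashed lines the fold set for calls. Right, *Cdkn1c* fragments per 1000000 in the cells with the fewest, middling and most RNA UMIs, where the RNA-poor cells stand at 58.3 and the others at 46.7 and 46.5.

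The study scored its cells as platelet-biased (PLT) or multilineage (MUL) from accessible regions of HSC clones, which were not used here. A different and coarser split was made from the study's genes that differ between PLT and MUL clones, by the share of each cell's PLT-list fragments among PLT- and MUL-list fragments, with *Cdkn1c* taken out of its list. Between the 1036 most PLT-weighted and the 1036 most MUL-weighted cells, 2.6% of 13683 other genes were past the fold set for calls, and 0 of 7 members were. *Cdkn1b* was nearest to it on the MUL side, at 36.5 against 44.7 per 1000000 fragments (−0.29, −0.48 to −0.11), at the 2.08th percentile of genes. That value was −0.085 (−0.17 to 0.0014) over 30 kb either side of the gene and −0.11 (−0.26 to 0.037) with the cells split at the median, and between −0.30 and −0.26, with intervals below 0, in the other alternatives (500 bp around the start, divided by promoter fragments, and without the 5% of cells with the most fragments). *Cdkn2b* was nearest on the PLT side (0.26, 0.024 to 0.49), with 0.088 (−0.065 to 0.24) over 30 kb, 0.14 (−0.046 to 0.33) with the cells split at the median, and values from 0.25 to 0.33 in the other alternatives, where the interval held 0 at 500 bp. For the remaining 5, *Cdkn1c* at 0.15 (−0.011 to 0.32) included, the interval holds 0. It lay above 0 for *Cdkn1c* in 3 alternatives, at 500 bp around the start (0.22, 0.034 to 0.41), with the cells split at the median (0.16, 0.030 to 0.30) and without the 5% of cells with the most fragments (0.18, 0.0058 to 0.35), and for *Cdkn2d* over 30 kb (0.089, 0.023 to 0.16).

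The other genes of the G1 switch were open almost throughout, where 60.2% of all protein-coding promoters were open at the gene-record start and 65.2% at the most open one. All 9 G1 cyclins and kinases had open promoters, from *Cdk6* with 399 fragments and *Ccnd3* with 318 to *Cdk4* with 3464 and *Ccne1* with 2803. So had all 13 pocket proteins and E2F genes, from *E2f2* (448) and *Rbl2* (539) to *E2f3* (2490) and *Tfdp1* (1909). Of 16 known regulators of CDK inhibitors 14 were open. *Mdm2*, the ubiquitin ligase of p53, had 2545 fragments and *Myc* 2135, and the 2 not open at their gene-record start, *Cbx7* (11), a Polycomb protein, and *Skp2* (5), which marks p27 for degradation, had 901 and 570 at another start. All 10 genes of S phase and mitosis, such as *Pcna* (2664) and *Ccna2* (2281), were open, so promoters of genes used in division and those of its inhibitors were accessible in the same population. *Cdkn2d*, with 4169, lay above the highest gene of each of these lists, and *Cdkn2a*, with 276, lay below all but *Gfi1* (209), named after its value was seen, and the 2 closed starts.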

How the data were processed

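Open chromatin, RNA and antibody-derived tags were read by DOGMA-seq from 1 preparation of LT-HSCs. The authors mapped reads with Cell Ranger ARC 2.0.2 to mm10 and deposited, for every barcode, counts of RNA UMIs and of fragments in peaks, and the position of every unique ATAC fragment with its count of read pairs. None of these counts was normalized. Whether fragment ends had been moved for the offset of the transposase was not stated. Chromosome names and lengths matched GRCm38. The tag counts were not used here.

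Cells called by the authors with more than 3000 fragments in peaks were kept (3108 cells, 37137164 fragments on chromosomes 1 to 19 and X). Each fragment was counted once, at its midpoint. Starts came from GENCODE vM21 and promoter sequences from RefSeq (9 entries for 6 of the 7 members). Intervals were exact Poisson, binomial or conditional binomial intervals at 95%. Cells of 1 library are not replicates, so no test was made, and group differences were described by fold (a log2 difference of 0.32, with at least 300 fragments). Doublets were not removed, and leaving out the 5% of cells with the most fragments was among the alternatives. The 7 members, the gene lists, the motifs and the named sites (the 3 highest distal bins of a window, at most 4 genes of a list) were chosen with earlier results of these data known. Not every gene of the marker lists is reported here. Python 3.11.15, numpy 2.4.6, scipy 1.17.1, pandas 2.3.3, pysam 0.24.0 and matplotlib 3.10.9 were used, and the counting was tested on simulated data.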

Additional observations from a re-analysis of the deposited data

How the results depend on the processing

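Which member had the most promoter fragments did not depend on the alternatives run, and 6 members were open in each of them except with the most open start (7). The Cip/Kip over Ink4 ratio was 0.489 with fragments shorter than nucleosomal DNA, 0.594 with promoters of 1000 bp either side and 0.696 with the most open start. Leaving out *Cdkn1a*, *Cdkn1b*, *Cdkn1c*, *Cdkn2a*, *Cdkn2b* or *Cdkn2c* gave 0.836, 0.464, 0.379, 0.440, 0.479 and 0.479, and without *Cdkn2d* it turned to 1.43; leaving members out was added after the data were seen. The median percentile of the members, 70.8, was 72.3 with fragment ends, 72.3 with short fragments and 67.0 with the most open start. The p19Arf start stood 4.58 times over the p16Ink4a start in short fragments. Open distal bins numbered 22 (Cip/Kip) and 2 (Ink4) at 10 times the genome mean, 31 around Ink4 genes at 3 times, and 8 around Ink4 genes in short fragments, so the Cip/Kip windows had more throughout. Any of the 7 promoters was seen in 50.3% of cells thinned to 3000 fragments and in 80.0% of all called cells. *Cdkn1c* was past the fold set for calls between RNA groups also at 500 bp around the start and without the 5% of cells with the most fragments, but 0 members were past it when divided by promoter fragments, over 30 kb either side, with the cells split at the median, and within strata of ATAC depth; its log2 difference stayed negative, from −0.47 to −0.16. Between PLT and MUL groups 1 member, *Cdkn2b* (0.33), passed it without the 5% of cells with the most fragments. No paired analysis was possible because the series holds 1 library of each kind. Depth limits the values of single cells, since a promoter without a fragment is not shown to be closed.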

Other observations

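Accessibility at the 7 promoters was also present in barcodes that were not called as cells. In those 601292 barcodes, which held 3525361 fragments together, the *Cdkn2d* promoter had 218 fragments, 163 times the mean of these barcodes (142 to 186), against 296 times in kept cells. *Cdkn1c* was at 55.3 times (43.4 to 69.4) against 96.4, *Cdkn1b* at 45.6 (34.9 to 58.5) against 78.7, and *Cdkn2a* at 8.22 (4.10 to 14.7) against 19.6. In the 649 called cells that were not kept, the intervals of *Cdkn2d* (270, 226 to 321), *Cdkn1b* (74.2, 52.0 to 103) and *Cdkn1c* (72.2, 50.3 to 100) overlap or touch those of the kept cells, and fragments there were few (131, 36 and 35).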
